A study of Macaca fascicularis with 80 samples.

Results

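Day 14 fell 7 days after the last of 3 injections of IL-15/IL-15Ra, and the blood drawn on it was set against blood of the same animals from day 0, labelled as undosed. The comparison holds 16 libraries of the 80 in the series, chosen by the day in the library name and joined by the animal number: 8 of day 14 and 8 of day 0, 1 each from 4 female and 4 male cynomolgus macaques (Macaca fascicularis). Doses escalated over days 0, 3 and 7, at 5, 10 and 15 µg/kg. Day 14 samples are labelled IL15 with the dose of 15 µg/kg, and day 0 samples Control with 0 µg/kg. Every animal was dosed, so time since the first bleed, repeated bleeding and treatment cannot be told apart. Age, health history and housing are not stated in the labels used here.

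IL-15 is a cytokine that supports natural killer cells and memory CD8 T cells. In the body it is held and presented by the alpha chain of its receptor, and the complex signals through the beta chain and the common gamma chain on the responding lymphocyte, which activates JAK and STAT proteins. Giving the cytokine as a complex with its alpha chain is known to prolong its activity. In whole blood, RNA comes from all circulating cells together, so for each result fewer cells of a type and less RNA per cell cannot be told apart.

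The gene identifiers in both deposited tables come without names, and a search in a RefSeq gene table paired 0 of them with a symbol. Marker genes of blood cells therefore could not be looked up, the label whole blood was not checked against them, and no gene product, sequence or pathway is named. Changes are described instead by the number, level, size and course of the genes that changed, with 2 identifiers that rose and 2 that fell as examples.

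Libraries of day 14 held 17.1 to 24.5 M counts (median 21.1 M), against 21.5 to 30.3 M (median 21.9 M) on day 0. Totals in the whole series ran from 17.1 to 80.2 M. Of the day 14 libraries, 5 carry another tag in their column names (GL08, called run tag here although its meaning is not stated), namely those of the 4 females 39090, 39095, 39097 and 39098 and of the male 39100. The other 3, of males 39102, 39103 and 39104, share their run tag (GL07) with all 8 libraries of day 0. The only further GL08 libraries are the day 10 libraries of the same 3 males. Run tag and sex therefore nearly coincide on day 14 and are separated by 1 animal, 39100.

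The first question was how far blood still stood from its undosed state 1 week after the last dose. On day 14, 1156 genes were higher than on day 0 and 1034 were lower, by edgeR's quasi-likelihood test with animal as a block and a Benjamini-Hochberg adjusted p under 0.05 (called genes below). Of the 16054 genes tested, 13.6% were called, 7.20% as higher and 6.44% as lower. The median change of the higher genes was 0.69 on the log2 scale (quartiles 0.51 and 1.05), and that of the lower genes was -0.62 (quartiles -0.95 and -0.47), whereas the median over all genes tested was -0.04. A change of more than 2-fold was seen for 310 of the higher genes (26.8%) and 243 of the lower genes (23.5%). A more than 4-fold change was seen for 93 higher and 101 lower genes. Many of the more than 2-fold changes lay in scarce genes, as counted by level below.

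Most called genes changed in the same direction in 8 of 8 animals, which is favoured because they were called in these same animals. Of the 1156 higher genes, 833 were higher in 8 of 8 animals, 291 in 7, 30 in 6 and 2 in 5 or fewer. Of the 1034 lower genes, 736 were lower in 8 of 8 animals, 274 in 7 and 24 in 6. Over all genes tested, 6.30% were higher in 8 of 8 animals and 6.18% were lower in 8 of 8. The ranges of the groups overlapped for most called genes. All 8 day 14 libraries lay above all 8 day 0 libraries for 256 of the higher genes, and below them for 182 of the lower genes. Such separation held for 1.63% of all genes tested in the upward and 1.2% in the downward direction.

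The balance of higher and lower calls depended on the scaling of the libraries. With library totals in place of trimmed mean of M-values (TMM) factors, 336 genes were higher and 1873 lower, and the median log2 change of all genes moved to -0.31. All 1156 higher genes kept a positive change under that scaling, with a median of 0.42, but only 328 of them were still called higher, while 1033 of the 1034 lower genes were still called lower. Upper-quartile factors gave 1029 higher and 1154 lower genes. Values below use TMM factors.

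The count of 2190 called genes also depended on which animals were included. It was 1128 without animal 39103, 1334 without 39102, 1383 without 39090 and 1396 without 39097, and it lay between 1559 and 2094 without any 1 of the other 4. Without both 39090 and 39104, whose day 14 scaling factors were the lowest, 730 genes were higher and 414 lower. DESeq2 called 3895 genes in the same 16 libraries, 1991 higher and 1904 lower. A test against a change of 1.2-fold left 459 higher and 300 lower genes.

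**Figure D1:**
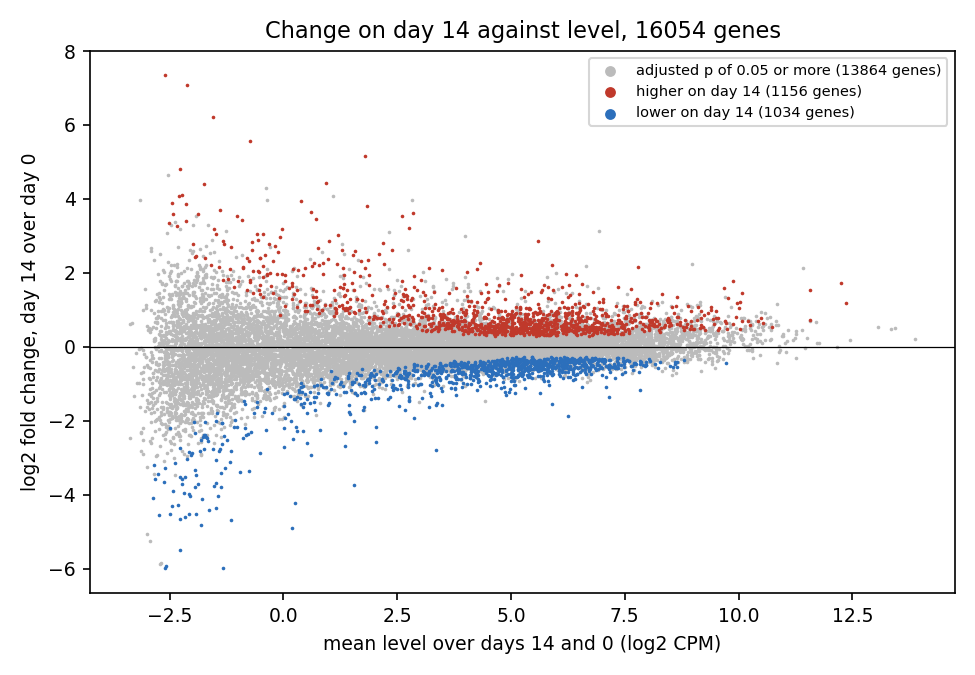
Each point is 1 of 16054 genes, with its mean level over the 16 libraries of days 14 and 0 in log2 CPM on the horizontal axis and its log2 fold change, day 14 over day 0, on the vertical axis. The 1156 genes called higher (red) reach to the abundant end of the axis, whereas the 1034 called lower (blue) thin out above a level of 8 log2 CPM.

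Calls were not spread evenly over the range of expression. Counts scaled to CPM with the TMM factors and taken to log2 with a prior count of 2 (log2 CPM) gave the level of each gene. Among the 763 genes with a mean of at least 8 log2 CPM, 102 were called higher (13.4%) and 13 lower (1.70%). At 6 to 8 log2 CPM, 270 of 2352 genes were higher and 223 lower, and at 4 to 6 log2 CPM 428 of 3926 were higher and 396 lower. Below 0 log2 CPM, where 3648 genes lay, 74 were higher and 94 lower, of which 73 and 94 changed by more than 2-fold. At 0 to 2 log2 CPM, 82 higher and 81 lower genes changed by more than 2-fold. The median standard error of the log2 change was 0.67 below 0 log2 CPM, against 0.13 at 4 to 6 log2 CPM.

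In the most abundant class the median log2 change exceeded that of all genes by 0.30, a distance that scaling hardly moves because a factor shifts all genes of a library alike. The calls depended on the scaling, with 34 higher and 90 lower calls in this class under library totals. Among the 100 genes most abundant on day 14, 18 were called higher and 0 lower, against 7.20% and 6.44% of all genes tested. Ranking on day 14 favours genes that rose in that list. Of the 100 most abundant on day 0, of which 82 were shared with that list, 9 were higher and 1 lower.

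**Figure D2:**
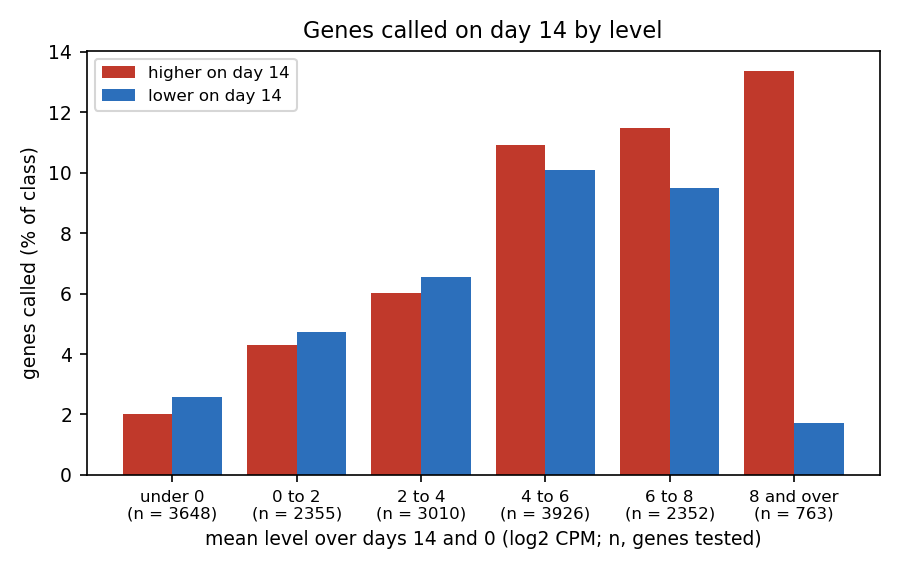
Bars give the percentage of genes in each class of mean level (log2 CPM) that were called higher (red) or lower (blue) on day 14 than on day 0, with the number of genes tested under each class. Both directions were called about equally often below 8 log2 CPM, and 13.4% were higher against 1.70% lower above it.

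The most abundant genes held a larger share of the counts on day 14. The 10 most abundant genes of each library took 7.23% to 10.98% of its counts on day 14 (median 9.10%), against 6.26% to 8.06% on day 0 (median 6.71%). This share was higher on day 14 in 8 of 8 animals, by a mean of 2.31 percentage points ± 1.58 (SD, n = 8). The 100 most abundant genes took 25.8% ± 2.82 on day 14 and 21.1% ± 1.12 on day 0. Such shares were not particular to day 14. On day 8 the 10 most abundant genes took 7.37% to 10.44% (median 8.93%) and the 100 most abundant 25.2% ± 2.28. For the 1000 most abundant the share was higher on day 14 in 6 of 8 animals, and it was 57.4% on day 14 and 58.1% on day 0 in animal 39095 and 56.6% on day 14 and 58.3% on day 0 in 39100. In parallel, 16701 to 18052 genes had at least 1 count on day 14, against 17873 to 19019 on day 0. Scaled to a common depth of 17.1 M counts, the expected number of genes detected was lower on day 14 in 8 of 8 animals, by a mean of -1126 genes ± 563 (SD, n = 8).

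The called genes themselves made up different shares of the RNA. The 1156 higher genes held 15.0% ± 2.77 of counts on day 14 and 10.0% ± 1.63 on day 0 (SD, n = 8), and the 1034 lower genes 3.50% ± 0.80 on day 14 and 6.005% ± 0.68 on day 0. Because the genes were chosen for their change, these shares only give its size in RNA. The lower genes were moderately expressed, with a median of 4.41 log2 CPM on day 14 and 5.03 on day 0, while the higher genes had medians of 5.51 on day 14 and 4.86 on day 0.

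The 4 example identifiers had the largest and the smallest fold changes among the 728 higher and 581 lower genes that were called, had a mean of at least 2 log2 CPM over the 16 libraries and changed in the same direction in 8 of 8 animals. They were thus selected for the values given here. Whether any of them shares reads with a close copy elsewhere in the genome is unknown here, which makes these values uncertain.

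ENSMFAG00000002142 rose the most, with 0.23 to 9.10 log2 CPM on day 14 (median 4.15) and -0.99 to 1.97 log2 CPM on day 0 (median 0.86). Raw counts were 22 to 8542 on day 14 and 11 to 95 on day 0. Its log2 fold change was 3.54 (SE 1.00, edgeR adjusted p = 0.040), higher in 8 of 8 animals. The groups overlapped, and the animals split widely. The 4 highest day 14 levels were 9.10 log2 CPM in animal 39104, 6.83 in 39097, 5.995 in 39090 and 5.29 in 39103, and the other 4 animals had 3.01 or less. The same 4 animals had the lowest TMM factors on day 14 (0.69 in 39104, 0.82 in 39097, 0.68 in 39090 and 0.75 in 39103), and the part of library composition in this rise was not tested. Without animal 39090, 39097, 39102 or 39103 the call was lost (edgeR adjusted p = 0.060 to 0.11), while the log2 fold change was 3.08, 3.13, 3.81 and 3.25, in that order.

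ENSMFAG00000033092 had 0.59 to 6.30 log2 CPM on day 14 (median 4.76) and -1.19 to 3.24 log2 CPM on day 0 (median 1.09). It rose by 3.21 on the log2 scale, or 9.23-fold (SE 0.39, edgeR adjusted p = 0.0017), in 8 of 8 animals. Animal 39103 was the lowest on both days, at 0.59 log2 CPM on day 14 and -1.19 on day 0, and changes in single animals ran from 1.51 to 5.09. Here the levels of the 5 animals with the other run tag on day 14 were 4.13 log2 CPM or more, and those of the 3 with the shared tag were 5.06 in 39102, 2.95 in 39104 and 0.59 in 39103. The change with GL08 exceeded that with GL07 by 1.84 on the log2 scale (SE 0.55, unadjusted p = 0.0074, adjusted p = 0.46 by edgeR). Run tag nearly coincides with sex, and the change in females exceeded that in males by 1.76. On day 17, when all 8 libraries carry GL07, levels were 1.45 log2 CPM in 39103, 2.43 in 39104 and 3.16 or more in the others. The part of tag, sex or single animals was not tested.

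ENSMFAG00000020302 fell the most, with -1.50 to 4.94 log2 CPM on day 14 (median 1.66) and 1.76 to 6.74 log2 CPM on day 0 (median 5.02). The fitted log2 fold change was -2.79 (SE 0.37, edgeR adjusted p = 0.0022), lower in 8 of 8 animals. Animal 39097, the lowest on day 0 at 1.76 log2 CPM, was also the lowest on day 14 at -1.50. Without the animal block the call was lost (log2 fold change -2.08, edgeR adjusted p = 0.091).

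ENSMFAG00000032523 had -2.05 to 3.68 log2 CPM on day 14 (median 0.67) and 2.15 to 5.31 log2 CPM on day 0 (median 3.09). Raw counts were 3 to 225 on day 14 and 134 to 789 on day 0. It fell by 2.59 on the log2 scale (SE 0.46, edgeR adjusted p = 0.0072), again in 8 of 8 animals. Animal 39098 was the highest on both days, with 3.68 log2 CPM on day 14 and 5.31 on day 0. The call was lost within the 3 animals of the shared run tag (log2 fold change -1.66, edgeR adjusted p = 0.060) and with run tag as a term over days 0, 10 and 14 (-1.24, edgeR adjusted p = 0.13). In the latter fit the day 10 libraries with GL08 held only 3, 0 and 0 counts of this gene (animals 39102, 39103 and 39104).

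**Figure D3:**
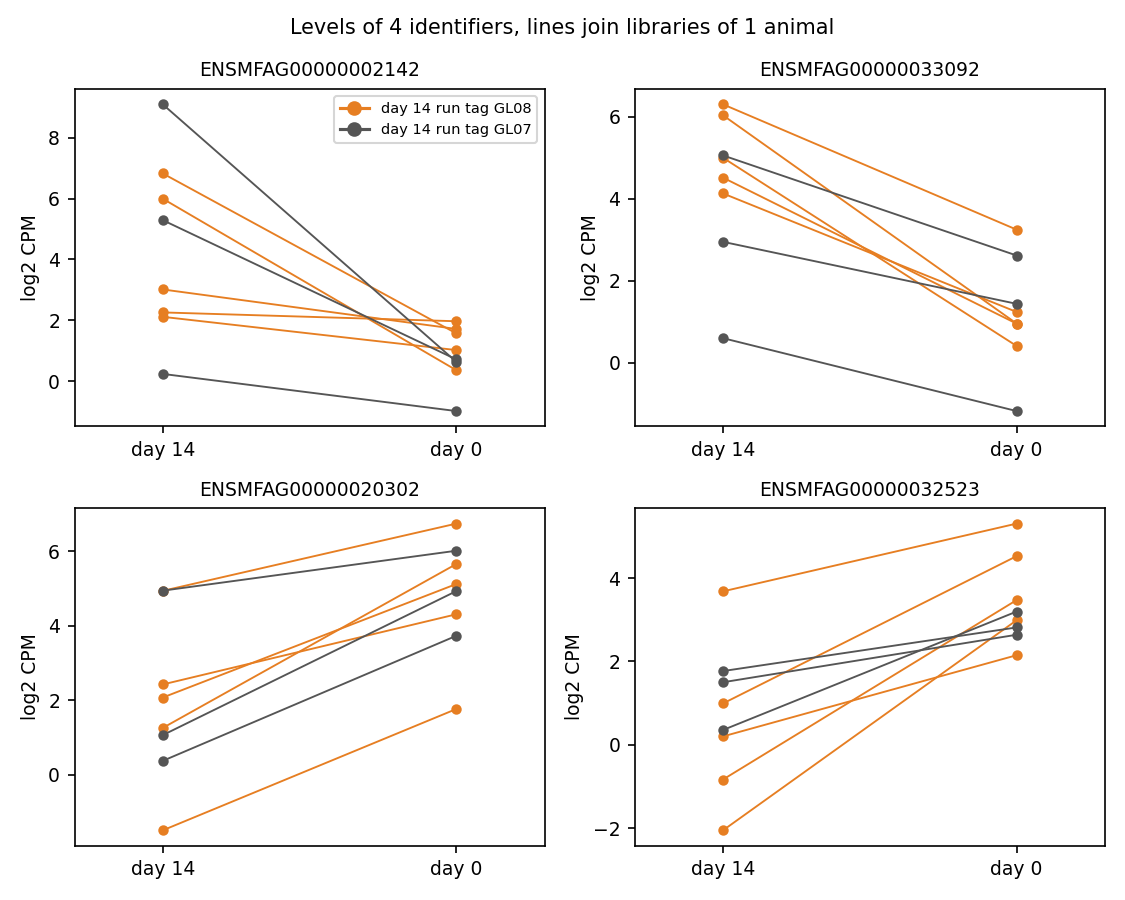
Levels of the 4 identifiers in log2 CPM on day 14 and day 0, with a line joining the 2 libraries of each of 8 animals, colored by the run tag of the day 14 library. Each line of the upper panels is higher on day 14 and each line of the lower panels is lower on day 14, while the ranges of the days overlap in all 4 panels.

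The courses of these identifiers over the other days differed. Each day was fitted against the same day 0 libraries, so the values share them. ENSMFAG00000002142 had log2 changes of 0.14, -0.42, 0.29, 0.91, 3.09, 1.76, 3.54, 0.86 and 0.33 over days 1, 3, 4, 7, 8, 10, 14, 17 and 21, in that order. It was called by edgeR on days 10 and 14 only (adjusted p = 0.014 and 0.040). ENSMFAG00000033092 was called on days 7, 10, 14, 17 and 21, at log2 changes of 2.71, 3.03, 3.21, 2.33 and 1.33 (highest edgeR adjusted p = 0.0017). ENSMFAG00000020302 was called lower on all 9 later days, with a log2 change of -3.92 on day 10 and -2.31 on day 21 (edgeR adjusted p = 2.1e-05 and 0.00016). ENSMFAG00000032523 already had a log2 change of -2.35 on day 1 and had -4.33 on day 10 (edgeR adjusted p = 0.00043 and 0.00020), and missed the threshold only on day 8 (-2.12, edgeR adjusted p = 0.068). Its raw counts on day 10 were near the floor in animals 39102, 39103 and 39104, at 3, 0 and 0.

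Each day 14 library was then set against the day 0 library of its own animal over all genes. The root mean square (RMS) of the log2 changes over the 16054 genes was 0.92 to 1.27 on day 14 (mean 1.06 ± 0.14, SD, n = 8). Over days 1, 3, 4, 7, 8, 10, 17 and 21 the means were 0.71, 0.75, 0.87, 0.79, 0.94, 0.85, 0.80 and 0.80, in that order. In 5 of 8 animals day 14 was the farthest of the 9 later days. Over the 10094 genes with a mean of at least 2 log2 CPM in all 80 libraries the distance was 0.57 to 1.04 on day 14, and day 14 was the farthest in 4 of 8 animals.

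The animals differed in this distance. It was 1.27 in animal 39104, 1.22 in 39090, 1.17 in 39097 and 1.03 in 39103, and between 0.92 and 0.97 in the other 4. The 4 most distant libraries were also the 4 with the lowest TMM factors of day 14. Factors ran from 0.68 to 1.13 on day 14, from 0.92 to 1.19 on day 0 and from 0.64 to 1.03 on day 8. Whether library composition has a part in the distance was not tested. Both run tags were among the distant libraries, 2 with each.

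**Figure D4:**
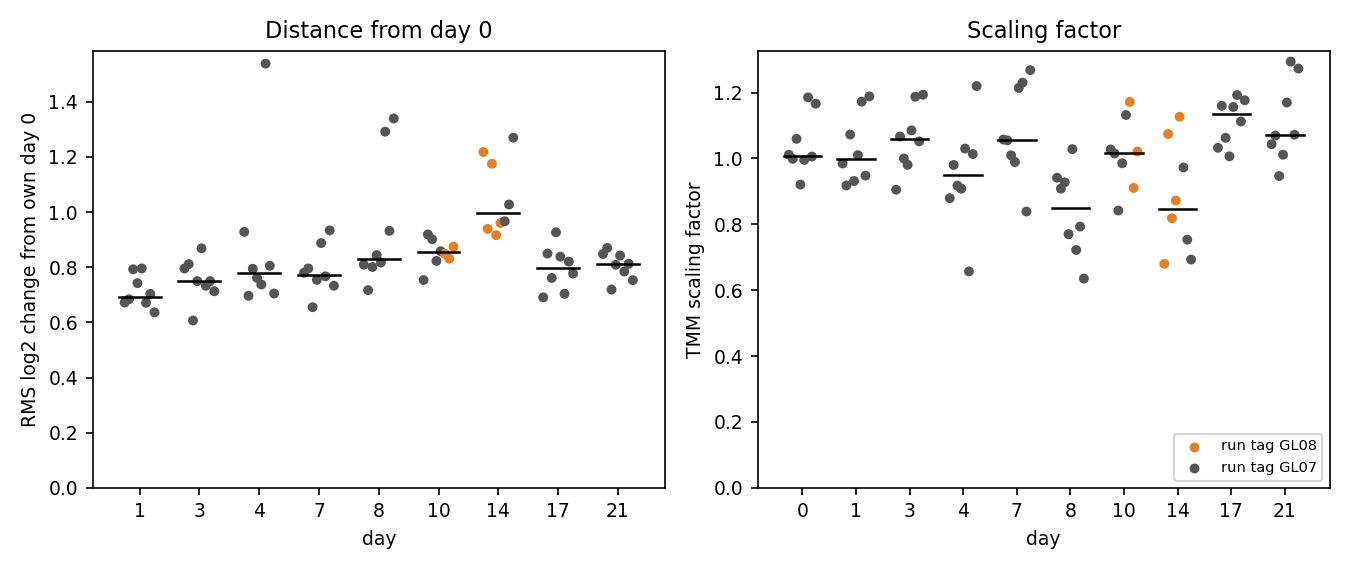
Left, RMS log2 change of each library from the day 0 library of its own animal over 16054 genes, by day. Right, TMM scaling factor of each library, by day. Points are 8 animals per day, bars are medians, and orange points carry the run tag GL08. Day 14 libraries lie between 0.92 and 1.27 in the left panel, and 4 of them have factors between 0.68 and 0.82 in the right panel.

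Animals were also less alike on day 14. Over the same 10094 genes, the median SD between the 8 animals was 0.39 log2 units on day 14 and 0.26 on day 0. It lay between 0.23 (day 17) and 0.35 (days 4 and 8) on the other 8 later days. For 83.7% of these genes the SD was larger on day 14 than on day 0. The same held within each run tag, with medians of 0.37 on day 14 and 0.24 on day 0 among the 5 animals with GL08, and 0.33 on day 14 and 0.22 on day 0 among the 3 with GL07. These spreads are descriptions and were not tested.

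Gene sets were followed without reusing the animal scored. For each animal, genes called on day 14 in the other 7 were averaged in the animal left out, giving sets of 648 to 1086 higher and 480 to 1008 lower genes. In the animals left out, the higher set stood 0.58 to 0.88 log2 units above day 0 on day 14 (mean 0.75 ± 0.11, SD, n = 8), and the change of the lower set was -1.20 to -0.44 (mean -0.76 ± 0.26). Between 82.97% and 96% of the higher set and between 75.7% and 98.05% of the lower set changed in the direction of the other 7 animals. Animals 39100 and 39095 had the smallest changes in both sets, at 0.58 and 0.59 in the higher set and -0.44 and -0.48 in the lower set. For the lower set the changes were deepest in animals 39090 (-1.20) and 39097 (-1.01).

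The same sets were followed over all later days. Over days 1, 3, 4, 7, 8 and 10 the means of the higher set were 0.03 ± 0.10, 0.19 ± 0.07, 0.21 ± 0.16, 0.33 ± 0.14, 0.36 ± 0.14 and 0.48 ± 0.10, in that order (SD, n = 8 each). Day 14 had 0.75 ± 0.11, day 17 had 0.33 ± 0.16 and day 21 had 0.38 ± 0.16, and on these days all 8 animals lay above their day 0. The lower set had means of -0.07 ± 0.12, -0.28 ± 0.13, -0.30 ± 0.11, -0.45 ± 0.15, -0.44 ± 0.13 and -0.59 ± 0.16 over the same 6 days, then -0.76 ± 0.26, -0.49 ± 0.17 and -0.50 ± 0.16 over days 14, 17 and 21. Day 1 thus lay near baseline in both sets, with 5 of 8 animals above day 0 in the higher set and 2 of 8 in the lower set. In the higher set, day 14 was farther from baseline than each other day in 8 of 8 animals, and in the lower set in 8 of 8 animals for each day except day 10, with 7 of 8. This order depended on the scaling. With library totals, under which the sets were chosen anew (151 to 376 higher and 571 to 2829 lower genes), day 14 was the farthest of the 9 later days in 5 of 8 animals in each set. There it was farther than day 10 and than day 21 in 6 of 8 animals each in the higher set, and farther than day 8 in 5 of 8 in the lower set. Since the sets were chosen on day 14, in other animals, their peak on that day is partly set by the choice.

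**Figure D5:**
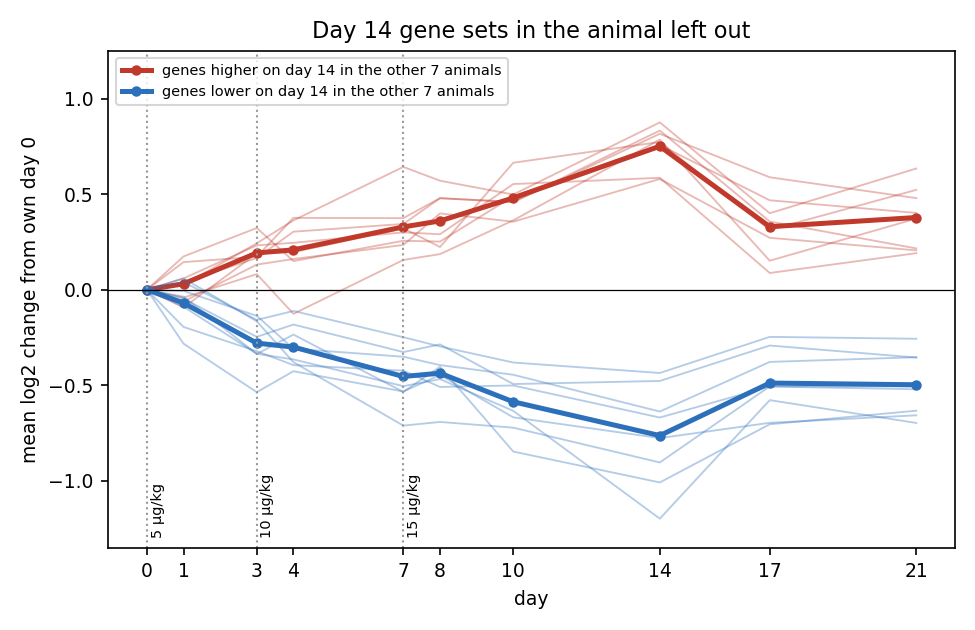
Mean log2 change from own day 0 of the genes called higher (red) and lower (blue) on day 14 in the other 7 animals, measured in the animal left out, by day. Thin lines are 8 animals, thick lines their means, and dotted lines mark doses. The means reach 0.75 and -0.76 on day 14 and lie at 0.38 and -0.50 on day 21.

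The other run tag of 5 day 14 libraries was examined in several ways. In edgeR's interaction test of the change by run tag, 0 genes were called (0.00%) and 1538 had an unadjusted p under 0.05, while DESeq2 called 110 genes in the same comparison, 94 of them with a more negative change in the animals with GL08, and gave no adjusted p for 2802 genes. Within the 3 males whose libraries of both days share the tag GL07, 805 genes were higher and 343 lower. Within the 5 animals with GL08 on day 14, where tag and day change together, 123 were higher and 102 lower. Of the 1156 higher genes, all had a positive mean change in both sets of animals, and of the 1034 lower genes, all had a negative mean change in the 5 and 1033 in the 3. These genes were chosen in the same 8 animals, which favours that count.

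Day 10 allowed the run tag to enter the model, since its 3 GL08 libraries came from the 3 males with GL07 on day 14. In a fit over the 24 libraries of days 0, 10 and 14 with animal, day and run tag, edgeR called 0 genes for the tag term (868 at an unadjusted p under 0.05). That term cannot be told apart from a difference between the 5 and the 3 animals in their change from day 10 to day 14. Day 14 differed from day 0 in 1713 genes upward and 1607 downward in that fit (20.7%, 10.7% upward and 10.0% downward), and in 2125 and 2084 when the tag was left out. In the scored sets, the mean change of the higher set on day 14 was 0.71 ± 0.12 (SD, n = 5) with GL08 and 0.82 ± 0.06 (SD, n = 3) with GL07, and that of the lower set was -0.76 ± 0.33 with GL08 and -0.77 ± 0.13 with GL07.

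Sexes were compared in the same way. For a difference between females and males in the change on day 14, edgeR called 0 genes (243 at an unadjusted p under 0.05) and DESeq2 called 0 (391). Within each sex, edgeR called 3 genes in the 4 females and 0 in the 4 males. In that order, 2417 and 2493 genes had an unadjusted p under 0.05. The 3 males of the shared run tag alone gave 805 higher and 343 lower genes, with 4429 at an unadjusted p under 0.05. The fit of the 4 males, with 0 calls, also held animal 39100, the male with GL08 on day 14. No other subset of 3 males was fitted, and the reason for the difference was not tested. The higher set stood at 0.74 ± 0.10 in females and 0.76 ± 0.13 in males, and the lower set at -0.84 ± 0.33 in females and -0.69 ± 0.20 in males (SD, n = 4 each).

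Day 14 was finally compared directly with the days around it, without day 0. Against day 10, when the animals were 3 days from the last dose, 143 genes were higher on day 14 and 159 lower (1.88% of those tested, 0.891% higher and 0.990% lower). Size factors gave 225 higher and 141 lower and library totals 113 higher and 530 lower, and 302 calls in all turned into 32 when animal 39102 was left out, 48 for 39100, 72 for 39090, 77 for 39098, 123 for 39104, 134 for 39103 and 696 for 39097. DESeq2 called 1847. In no animal do both days carry the same run tag, and with run tag as a term over 24 libraries 498 genes were higher and 497 lower. Of the 4 identifiers, none was called against day 10 by edgeR (adjusted p between 0.15 and 0.79).

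More genes separated day 14 from day 17, which came 3 days later. Here 1735 genes were higher on day 14 and 1481 lower (20% of 16053 genes tested, 10.8% higher and 9.23% lower), with 547 higher and 198 lower by more than 2-fold. Upper-quartile factors gave 1484 higher and 1934 lower, and library totals 700 and 5247, with medians over all genes of -0.12 and -0.43. ENSMFAG00000002142 was 2.56 higher on day 14 on the log2 scale (SE 0.79, edgeR adjusted p = 0.043, 7 of 8 animals) and ENSMFAG00000033092 0.82 higher (SE 0.22, edgeR adjusted p = 0.028, 7 of 8 animals). The 2 falling identifiers showed log2 differences of -0.30 and 0.46 (edgeR adjusted p = 0.53 and 0.54). The smallest adjusted p was 0.010, close to the threshold, and the count of 3216 rested on single animals. It was 0 without animal 39102 or 39103 (5273 and 4857 genes at an unadjusted p under 0.05), 115 without 39090 and 883 without 39097, and 2 without both 39090 and 39104, whose day 14 factors were the lowest.

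Against day 21, 743 genes were higher on day 14 and 648 lower (8.67% of 16052 genes tested, 4.63% higher and 4.04% lower). Upper-quartile factors gave 745 higher and 999 lower, and library totals 546 and 3707. ENSMFAG00000002142 was 3.28 higher on day 14 (SE 0.77, edgeR adjusted p = 0.038, 7 of 8 animals) and ENSMFAG00000033092 1.86 higher (SE 0.31, edgeR adjusted p = 0.030, 8 of 8 animals). The count of 1391 also rested on single animals, with 0 without 39103 (4210 genes at an unadjusted p under 0.05), 1 without 39090, 2 without 39102, 8 without 39097, 28 without 39104 and 2762 without 39095, and 0 without both 39090 and 39104 (3273 genes at an unadjusted p under 0.05). Within the 3 animals of the shared run tag, 1356 genes were higher and 397 lower.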

How the data were processed

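Whole-blood RNA of 8 animals on 10 days was sequenced, with isolation by the RNAdvance Blood kit and libraries from KAPA HyperPrep mRNA reagents, per the labels' protocols. The authors deposited raw gene counts, whole numbers per gene and library, in 2 tables (38550 and 35432 genes). The read aligner, the counter, the build and the use of strand were not given in the sources used here. Of both tables' identifiers, 0 matched the gene table (RefSeq, 40596 genes), so the chosen gene lists were not applied.

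Genes passing edgeR's filterByExpr by day over 80 libraries (16054, 41.6%) were scaled by TMM and fitted on 16 libraries with animal as a block (edgeR 4.0.16, glmQLFit and glmQLFTest, R 4.3.3). Adjusted p values are Benjamini-Hochberg over all genes tested, and genes under 0.05 are called. Interaction tests used day by run tag or sex. DESeq2 1.42.0 and limma 3.58.1 (voom) served as alternatives, and procedures were tested on simulated data. Log2 CPM used a prior count of 2, which shrinks changes of scarce genes in log2 CPM, in the scores and in the distances. Fitted log2 fold changes came from the model and were not shrunk by that prior count. Standard errors (SE) of edgeR changes were back-calculated, as the absolute log2 change divided by the square root of the test's F statistic. Depth limits scarce genes most. With animal as a block, p values rest on how the change varies between animals, not on the spread of levels.

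Animal numbers in the labels give the pairing. Deviations of the same animal on days 14 and 0 correlated over genes at 0.13 to 0.46 (median -0.08 between different animals). Libraries of 1 day differed by more than sampling noise (chi-square over degrees of freedom at least 29.9).

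The identifiers printed are the 2 with the largest and 2 with the smallest log2 fold change among called genes of at least 2 mean log2 CPM and 1 direction in 8 animals. Days, lists and tests were chosen with earlier results of these data known.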

Additional observations from a re-analysis of the deposited data

Results flagged for a closer look

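Of 28 groups of 8 values examined, chance would put about 1 in 20 beyond the limit used for a value far from the others, and 1 exceeded it. The day 0 library of animal 39090 held 30.3 M counts, and the next highest day 0 library 24.9 M. Without animal 39090 the day 14 comparison called 1383 genes.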

How the results depend on the processing

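For day 14 against day 0, the identifiers kept their direction in each setting that gave them a value (ENSMFAG00000032523, chosen by its mean over 16 libraries, had none among genes with a mean of at least 2 log2 CPM over 80), and counts within 1.5 times of 2190 came from RLE, upper-quartile and total scaling, no low-count filter, limma voom, the second table, genes of at least 2 log2 CPM and the fit with no replicate block (2340 genes). Other counts were 3895 (DESeq2), 5402 (one fit over 80 libraries), 3320 (run tag as a term), 4209 (same 24 libraries without it), 1148 (shared run tag), 225 (GL08 animals), 1144 (without 39090 and 39104), 3 (females), 0 (males), 759 (against 1.2-fold) and 1128 to 2094 (leaving out 1 animal).

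The fits over 24 libraries and without 39090 and 39104 were chosen after seeing the data. For day 14 against day 10, counts were 643 (library totals), 599 (no filter), 1847 (DESeq2), 1043 (limma voom), 98 (no replicate block), 2165 (80 libraries), 48 (without 39090 and 39104), 995 (run tag term) and 32 to 696 (leaving out 1 animal), against 302. A fit within 1 run tag was not possible there. For day 17 they were 5947 (library totals), 4916 (DESeq2), 1889 (no replicate block), 5481 (80 libraries), 1001 (shared run tag), 2 (without 39090 and 39104) and 0 to 3611 (leaving out 1 animal), against 3216. For day 21 they were 4253 (library totals), 4072 (DESeq2), 5596 (80 libraries), 0 (without 39090 and 39104) and 0 to 2762 (leaving out 1 animal), against 1391. Fits over more libraries have more residual degrees of freedom and those on fewer animals have fewer, but the counts did not follow the number of animals. For day 14 against day 0, edgeR called 1148 genes in the 3 animals of the shared run tag and 225 in the 5 with GL08. It called 3 in the 4 females and 0 in the 4 males. On the same 16 libraries edgeR called 2190 and DESeq2 3895. Why the counts differ was not tested.

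Interaction counts stayed at 0 in the settings run, except 110 for run tag by DESeq2. The higher set's score of 0.75 was 0.88 with library totals, 0.60 as a median and 0.73 to 0.77 leaving out 1 animal, and the lower set's was -0.81 to -0.70. The distance was 0.74 over genes of at least 2 log2 CPM and 1.03 to 1.08 leaving out 1 animal. The rise in the share of abundant genes was 4.69 points for 100 genes and 2.01 to 2.61 leaving out 1 animal.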
